A study of Mus musculus with 6 samples.

Results

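Complement genes, the regulators that hold the cascade in check and clusterin were followed through clear cells of the mouse epididymis, as 9 genes picked by name from the 37578 rows of the deposited RPKM table: C3, C4b, Cfb, Cfd, Cr1l, Cd55, Cd46, Cd59a and Clu. Clear cells are the proton-secreting cells of the epididymal epithelium, the lining of the duct in which sperm mature. They were sorted by EGFP fluorescence, in a double sort, from untreated transgenic mice aged 12 weeks whose EGFP is driven by the ATP6V1B1 promoter, so every group carried the same transgene and the sort selects for activity of that promoter. Cells came from 3 successive segments of the duct: caput (nearest the testis), corpus and cauda, where sperm are stored. Each segment has 2 libraries, and each library pools 12 epididymides. The labels do not say whether the pools of a region were separate sets of animals. All p-values here therefore speak of the spread between libraries, which may be technical.

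Complement is a cascade of plasma and locally made proteins in which C3 is split by enzyme complexes, the convertases, and its larger fragment C3b attaches to nearby surfaces. The classical and lectin pathways reach C3 through C4 and C2, the alternative pathway through factors B and D, and all end in the membrane attack complex of C5b to C9. Host cells and sperm carry membrane regulators that dismantle convertases or block the attack complex, and clusterin is a secreted chaperone that binds the terminal complex and is known as an abundant epididymal protein that coats sperm.

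Reads assigned to genes came to between 18887128 and 24700717 per library. All 13 clear cell markers had reads in every library, but their summed level fell along the duct, at 3648 and 3489 RPKM in caput, 1069 and 1260 in corpus and, in cauda, 348.8 and 456.4. The summed level of 12 principal cell markers ran the other way, at 5239 and 6126, 31914 and 39299, and 56523 and 54021 RPKM. Crisp1, a sperm-coating protein gene, made up between 38.8% and 96.1% of that sum. Of the 15816 genes that passed the filter on low counts, 66.9% were called between caput and cauda, 65.0% between caput and corpus and 35.4% between corpus and cauda (edgeR's quasi-likelihood test, Benjamini-Hochberg adjusted p under 0.05). Counts of genes called are to be read against those shares. Scaling by library totals moved the median log2 fold change over all genes from 0.04 to 0.89, from 0.04 to 0.63 and from 0.00 to 0.27 in these comparisons. It turned the split of higher and lower calls from 5363 and 5218 to 9498 and 2566, from 5246 and 5029 to 8436 and 2973, and from 2742 and 2850 to 5154 and 1736. Changes below are therefore relative to the bulk of the genes.

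Among the 9 genes, the regulators, not the components, made up nearly all of the signal. RPKM divides reads by gene length and by the scaled library size, so levels of different genes can be set side by side. The summed level of the components C3, C4b, Cfb and Cfd lay between 0.1792 and 1.386 RPKM in the 6 libraries, whereas that of the membrane regulators Cr1l, Cd55, Cd46 and Cd59a lay between 63.19 and 107.1 RPKM. Clu alone lay between 120.1 and 1372 RPKM. Of the 9 genes, 7 passed the filter. Between caput and cauda, 2 were called higher in caput (33.9% of all tested genes were) and 3 higher in cauda (33.0%). Between caput and corpus, 2 were higher in caput (33.2%) and 1 in corpus (31.8%). Between corpus and cauda, 0 were higher in corpus (17.3%) and 3 in cauda (18.0%). None of the 7 had an unadjusted p under 0.05 for higher in corpus than in cauda, and DESeq2 called 0. With so few genes, the counts say nothing about the 9 as a group.

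**Figure D1:**
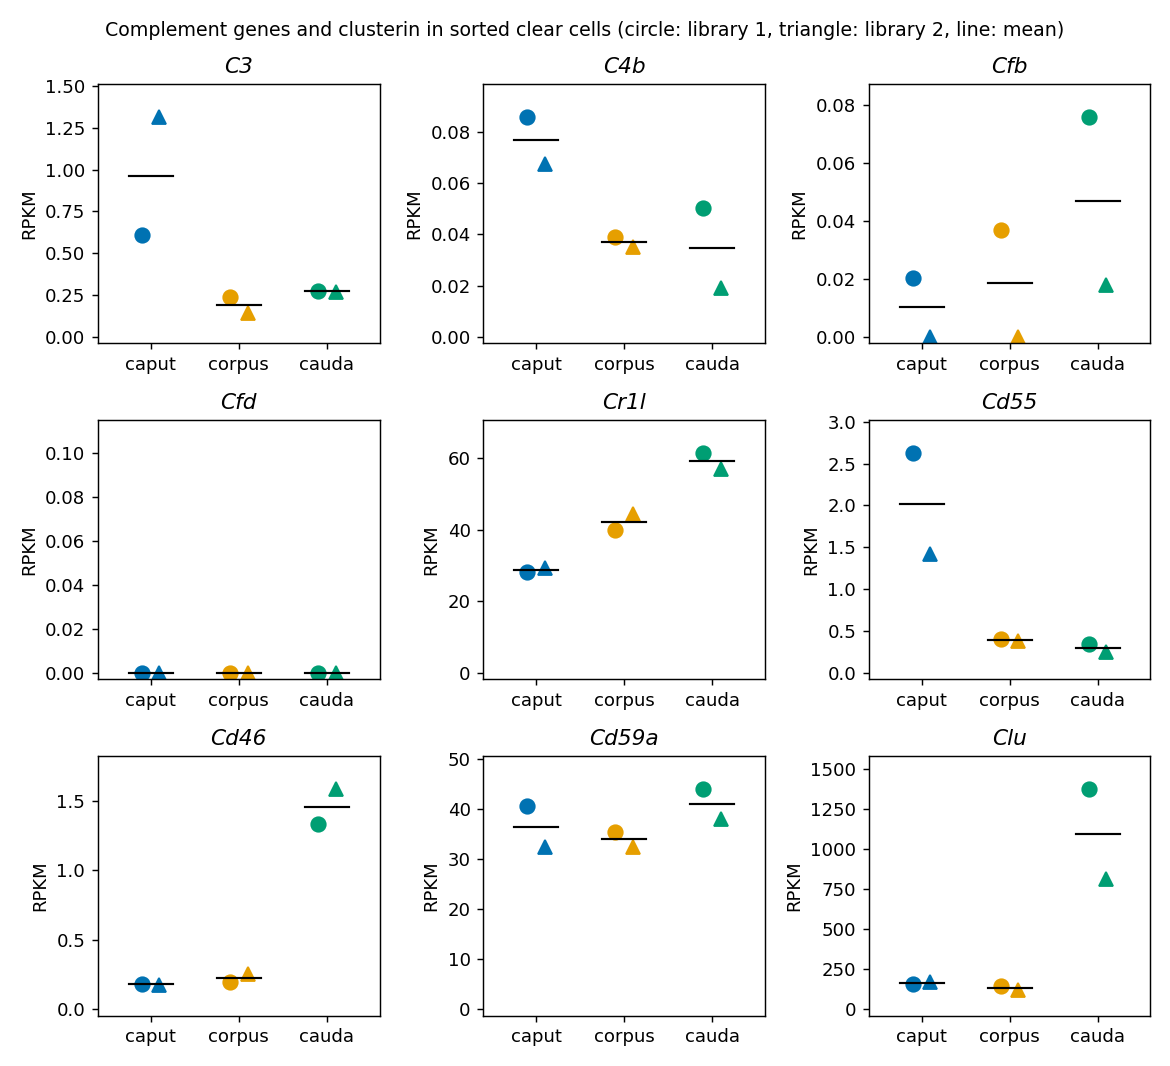
RPKM (vertical axes, linear, each with its own range) of the 9 genes in the caput, corpus and cauda libraries, with circles for library 1, triangles for library 2 and a line at the mean of both. Clu and Cd46 stand apart in cauda, C3 and Cd55 in caput, Cr1l climbs from caput to cauda, and Cfd is at 0 throughout.

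Clusterin set cauda apart. Clu (ENSMUSG00000022037) measured 153.9 and 170.4 RPKM in caput 1 and 2, 146 and 120.1 in corpus and, in cauda, 1372 and 813.6. Caput and corpus were close in level, the cauda libraries were far above all the others, and cauda 1 was 1.686 times cauda 2. The lower cauda library was still 4.776 times the highest library of the other regions. By RPKM, Clu ranked 308 and 263 among all genes in caput 1 and 2, 499 and 635 in the corpus libraries, and 63 and 91 in those of cauda. It took 0.368% of the reads in genes in cauda 1 (95% exact binomial interval 0.366% to 0.371%) and 0.224% in cauda 2 (0.222% to 0.226%), against at most 0.082% in any other library. The intervals do not overlap, so the cauda libraries differ from each other by more than counting error.

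For caput against cauda, Clu had a log2 fold change of -2.82 ± 0.29 (SE), which is 7.05-fold lower in caput (adjusted p = 5.48e-04, edgeR's quasi-likelihood test). For corpus against cauda it was -3.04 ± 0.29, which is 8.24-fold lower in corpus (adjusted p = 0.001111). Caput and corpus differed by 0.23 (95% interval -0.47 to 0.92, adjusted p = 0.4975), an interval that holds differences in either direction. Under library totals the differences from cauda were -1.95 and -2.77 and still called, and Clu was then called higher in caput than in corpus at 0.81 (adjusted p = 0.04519). Beside this pattern, the summed level of the principal cell markers was also highest in cauda, where Crisp1 made up 94.1% and 93.7% of it, and that of the clear cell markers was lowest. The principal cell markers did not move as one: 5 of the 12 were called higher in cauda than in caput and 7 higher in caput. Their part in the Clu result was not tested, and in pooled cells a change in the share of a cell type and a change in RNA per cell cannot be told apart.

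**Figure D2:**
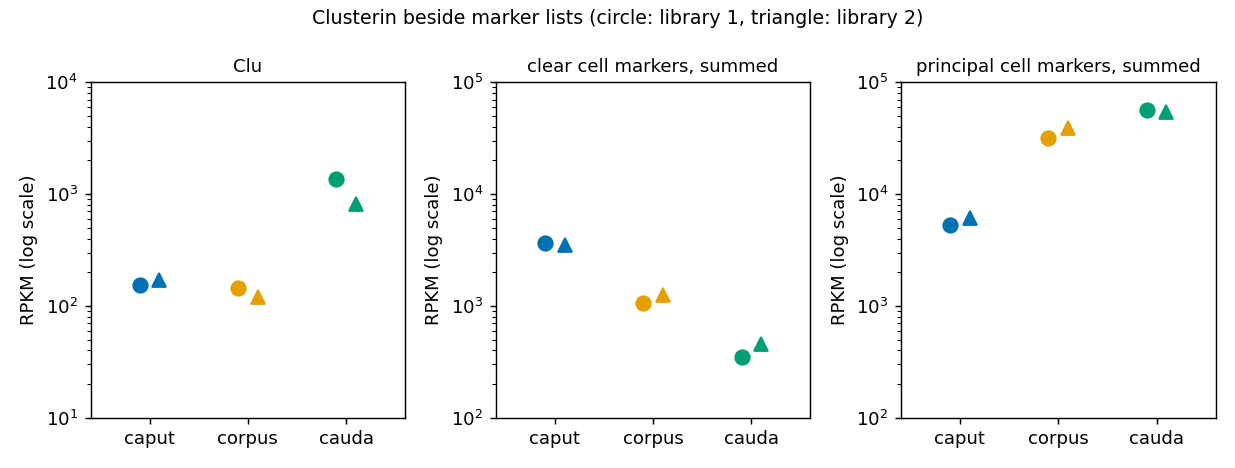
Clu and the summed levels of the clear cell and principal cell marker lists, in RPKM on log axes that each span 3 decades, for each library (circle: library 1, triangle: library 2). Clu is level between caput and corpus and high in cauda, whereas the clear cell sum falls and the principal cell sum climbs at each step along the duct.

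By Euclidean distance between centred log2 CPM values over the 6 libraries, the 5 genes whose profile was nearest to that of Clu among 8263 candidates were Lrpap1, Cxcr7, Crip1, Pdlim1 and Tmem218, at distances of 0.54 to 0.77. Lrpap1, which encodes a chaperone of the LDL receptor family, measured 28.51 and 30.39 RPKM in caput, 26.06 and 26.38 in corpus and, in cauda, 185.3 and 165.8. Cxcr7, an atypical chemokine receptor gene, went from 1.076 and 1.767 in caput and 1.211 and 1.019 in corpus to 10.74 and 9.035 in cauda. Crip1, a LIM-domain protein gene, was far more abundant, at 1345 and 1672, 1168 and 799.1, and 9100 and 8012 RPKM in the same order. All 3 stepped up in cauda, which follows from their choice by nearness to Clu over the same libraries.

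Among the 4 membrane regulators of the set, Cr1l and Cd59a carried nearly all of the level and behaved differently along the duct. Cr1l encodes Crry, the main membrane regulator of C3 convertases in rodents. Cr1l (ENSMUSG00000016481) measured 28.24 and 29.25 RPKM in caput, 39.78 and 44.39 in corpus and, in cauda, 61.43 and 56.88. The regions did not overlap, and each step towards cauda was a step up. Its log2 fold change was -1.11 ± 0.09 for caput against cauda (adjusted p = 4.09e-06), -0.61 ± 0.09 for caput against corpus (adjusted p = 2.63e-04) and -0.49 ± 0.09 for corpus against cauda (adjusted p = 0.002291). Under library totals the first was -0.25 (adjusted p = 0.02704), and the calls for caput against corpus (-0.02, adjusted p = 0.844) and corpus against cauda (-0.23, adjusted p = 0.06269) were lost. Fold changes ran with gene length: over the 1977 tested genes of 1263 to 1975 bases, the class that holds Cr1l and Cd59a, the median log2 fold change of caput against cauda was -0.43 and against corpus -0.41, whereas it was 0.41 and 0.35 over the longest. Cr1l also ran the same way along the duct as the summed principal cell markers. The part of length or of these cells in the Cr1l result was not tested.

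Cd59a, whose product is a lipid-anchored protein that keeps C9 from completing the attack complex, was nearly level. Cd59a (ENSMUSG00000032679) measured 40.69 and 32.35 RPKM in caput, 35.51 and 32.53 in corpus and, in cauda, 44.03 and 38.12. The caput libraries overlapped both other regions, and the corpus libraries lay just below the cauda libraries. The log2 fold change was -0.23 for caput against cauda (95% interval -0.50 to 0.03, adjusted p = 0.1076), 0.04 for caput against corpus (-0.23 to 0.31, adjusted p = 0.7788) and -0.28 for corpus against cauda (-0.55 to 0.00, adjusted p = 0.1079). With the replicate number as a block the first and last were called (-0.24, adjusted p = 0.0226, and -0.27, adjusted p = 0.02425). Without caput 1 the difference between caput and cauda was -0.39 (adjusted p = 0.01678), and without caput 2 that between corpus and cauda was called at -0.28 (adjusted p = 0.04825). Under library totals Cd59a was instead called higher in caput than in cauda at 0.62 (adjusted p = 8.50e-04) and than in corpus at 0.63 (adjusted p = 9.51e-04). The direction for Cd59a between caput and cauda thus depends on the scaling. Between caput and corpus the sign was the same under both scalings, and the call depends on the scaling.

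A ratio within a library does not depend on how libraries are scaled. Cr1l stood at 0.694 and 0.9042 times Cd59a in caput, 1.12 and 1.364 times in corpus and, in cauda, 1.395 and 1.492 times. Cd59a led in both caput libraries, and Cr1l in the other 4. The ratios are given as values, without a test.

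Cd59b, a close copy that lies next to Cd59a in the RefSeq annotation of GRCm38, was lower in level and rose towards cauda. It measured 1.731 and 1.529 RPKM in caput, 2.682 and 3.06 in corpus and, in cauda, 7.194 and 5.893, with no overlap between regions. Its log2 fold change was -2.07 ± 0.24 for caput against cauda (adjusted p = 5.23e-05) and -1.19 ± 0.24 for corpus against cauda (adjusted p = 0.004005). The call for caput against corpus, at -0.88 ± 0.25 (adjusted p = 0.01143), was lost under library totals (-0.29, adjusted p = 0.3186) and without corpus 2 (-0.78, adjusted p = 0.06774). The ratio of Cd59a to Cd59b was 23.5 and 21.16 in caput, 13.24 and 10.63 in corpus and, in cauda, 6.12 and 6.468. Reads that fit both copies equally well were not counted, so both levels are uncertain to that extent.

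Cd55 and Cd46 were scarce and moved in opposite directions. Cd55 encodes decay-accelerating factor, a lipid-anchored protein that breaks up convertases. Cd55 (ENSMUSG00000026399) measured 2.627 and 1.414 RPKM in caput, 0.4039 and 0.3838 in corpus and, in cauda, 0.3386 and 0.254. Both caput libraries were above all the others. Caput exceeded cauda by 2.70 ± 0.35 log2, a fold of 6.5 (adjusted p = 9.09e-05), and corpus by 2.29 ± 0.33 (adjusted p = 2.35e-04). Corpus and cauda differed by 0.41 (95% interval -0.43 to 1.24, adjusted p = 0.4388). The median of 1977 genes of like length was 0.35 for caput against cauda and 0.31 for caput against corpus. The summed level of the basal cell markers was also highest in caput, as given with C3 below. Against corpus, 6 of these 8 markers were called higher in caput and 1 lower. Caput 2 held the larger basal cell sum, whereas Cd55 was higher in caput 1. The clear cell sum given above was highest in caput too, with more in caput 1. The part of either cell type in the Cd55 result was not tested.

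Cd46 encodes membrane cofactor protein, which helps factor I to cut C3b and C4b and which in the mouse is known mainly from testis and the sperm acrosome. Cd46 (ENSMUSG00000016493) measured 0.1815 and 0.1762 RPKM in caput, 0.1977 and 0.2525 in corpus and, in cauda, 1.329 and 1.582, from 78 and 99 reads in the cauda libraries and between 12 and 20 in each of the others. Only the cauda libraries were above 1 RPKM. Its log2 fold change was -3.08 ± 0.37 for caput against cauda, a fold of 8.44 (adjusted p = 5.60e-05), and -2.68 ± 0.37 for corpus against cauda (adjusted p = 4.64e-04). Caput and corpus differed by -0.39 (95% interval -1.29 to 0.50, adjusted p = 0.4046), and by 0.19 under library totals. The summed level of 13 sperm markers was 44.73 and 336.2 RPKM in caput, 2.355 and 60.66 in corpus and, in cauda, 33.33 and 97.2. Of the 9 sperm markers tested, 3 were called higher in caput than in cauda and 0 lower. Their median log2 fold change was 4.90 for caput against cauda, 7.75 for caput against corpus and -1.02 for corpus against cauda. In cauda most of the sum came from Smcp, at 24.55 and 86.12 RPKM. Prm1, the sperm protamine gene, was at 15.92 and 100.5 RPKM in caput, 0.1185 and 0.3204 in corpus and, in cauda, 0 and 0.2297. Of the 11 stromal and endothelial markers, 10 were tested, and 1 was called higher in caput than in cauda and 4 lower. Their summed level, given with C3 below, was nonetheless highest in caput. Nearly all of it there came from Dcn, at 307.4 and 308.2 RPKM in caput and 168.1 and 192.2 in cauda. Col1a1, Col1a2, Col3a1 and Lum were each higher in both cauda libraries than in any other. The principal cell sum was highest in cauda. The part of these cells in the Cd46 result was not tested.

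Cd55 and Cd46 thus changed places: Cd55 stood at 14.48 and 8.029 times Cd46 in caput, 2.043 and 1.52 times in corpus and, in cauda, 0.2548 and 0.1606 times. Cr1l exceeded both in every library, and of the summed level of the 4 membrane regulators Cr1l held between 39.4% and 58.7% and Cd59a between 39.4% and 56.7% in the 6 libraries.

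Daf2, an older symbol of Cd55b, is a second decay-accelerating factor gene that in the mouse lies next to Cd55 and is known for expression in testis. It had 3 and 27 reads in caput 1 and 2, at 0.04896 and 0.5032 RPKM, and 0 in the corpus and cauda libraries. It did not pass the filter and was not tested. Prm1 and the summed sperm markers, given above, were also highest in caput 2, and the part of sperm in the Daf2 level was not tested.

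**Figure D3:**
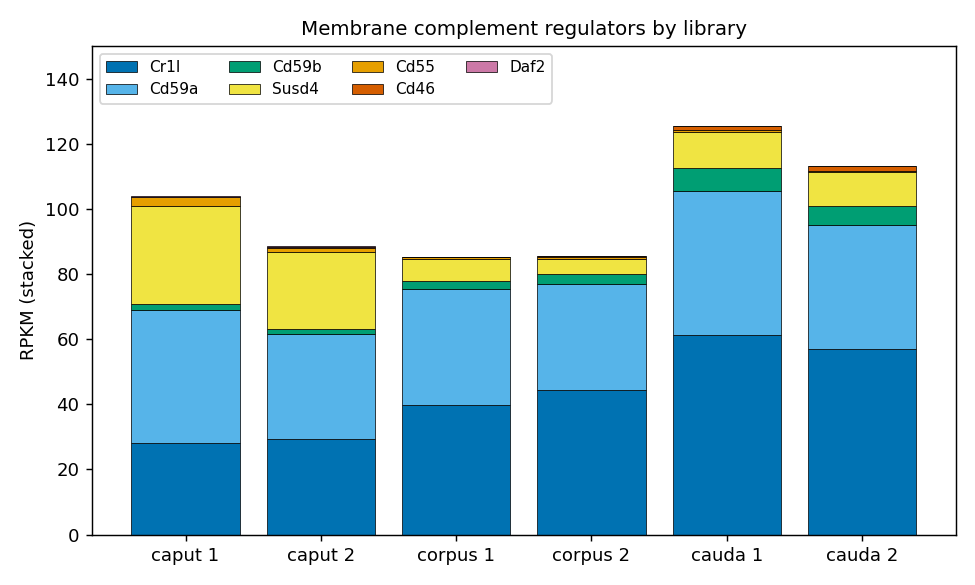
Stacked RPKM of 7 membrane complement regulators in each library. Cr1l and Cd59a form most of every bar, the Susd4 band is widest in caput and the Cd59b band in cauda.

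Cd55b and Cd55 are neighbours on mouse chromosome 1, as are Cd46 and Cr1l, in the RefSeq annotation of GRCm38. The promoters of these pairs are shown because the first pair had its highest levels in caput and the second in cauda. Each runs from 250 bases before to 50 after the annotated start, on the minus strand, 5′ to 3′, from RefSeq on GRCm38.p6, at chr1:195131521-195131820 (Cr1l), chr1:195092199-195092498 (Cd46), chr1:130462695-130462994 (Cd55) and chr1:130422994-130423293 (Cd55b). The table held promoters of 6 of the 9 genes, not of Clu, C4b or Cfb. Capitals mark matches, on either strand, to any of the motifs searched: TATAAA for the box of that name, GGGCGG for the GC box, CCAAT for the box of that name, TGAGTCA for AP-1, CACGTG for the E-box, AGAACA for a part of the androgen response element, and the core of the interferon-stimulated response element, which is GAAA repeated after a gap of 2 bases.
Cr1l: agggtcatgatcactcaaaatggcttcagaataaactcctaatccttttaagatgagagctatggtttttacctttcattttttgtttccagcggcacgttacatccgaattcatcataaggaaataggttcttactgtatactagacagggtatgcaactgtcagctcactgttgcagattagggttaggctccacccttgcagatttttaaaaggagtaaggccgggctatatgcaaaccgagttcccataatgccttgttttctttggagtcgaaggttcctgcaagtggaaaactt
Cd46: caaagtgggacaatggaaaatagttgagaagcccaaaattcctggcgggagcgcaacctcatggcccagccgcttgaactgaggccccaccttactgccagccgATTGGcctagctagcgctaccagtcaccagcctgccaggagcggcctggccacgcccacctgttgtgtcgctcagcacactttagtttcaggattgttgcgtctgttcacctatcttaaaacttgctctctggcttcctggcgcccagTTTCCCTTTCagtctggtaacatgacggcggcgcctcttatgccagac
Cd55: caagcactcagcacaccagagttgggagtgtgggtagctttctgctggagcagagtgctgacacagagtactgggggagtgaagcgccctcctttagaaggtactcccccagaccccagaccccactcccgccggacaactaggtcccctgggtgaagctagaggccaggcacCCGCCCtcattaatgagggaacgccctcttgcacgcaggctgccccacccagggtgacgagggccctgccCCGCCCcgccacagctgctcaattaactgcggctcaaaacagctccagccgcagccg
Cd55b: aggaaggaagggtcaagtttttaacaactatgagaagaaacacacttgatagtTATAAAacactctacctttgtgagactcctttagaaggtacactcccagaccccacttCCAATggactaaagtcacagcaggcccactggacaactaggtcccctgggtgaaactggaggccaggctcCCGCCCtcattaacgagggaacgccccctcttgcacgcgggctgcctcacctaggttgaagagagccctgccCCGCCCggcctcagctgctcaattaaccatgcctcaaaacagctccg
Cd55 and Cd55b each held GC boxes at a pair of places, at bases 174 and 244 of the Cd55 sequence and bases 182 and 254 of the Cd55b sequence. Cd55b also held a TATA box at base 54 and a CCAAT box at base 112. Cd46 held a CCAAT box at base 105 and an interferon-type match at base 253, and Cr1l held none of the motifs. None of the matches overlapped. Over all 32851 promoters of this length, 35.7% held a GC box, 37.4% a CCAAT box, 13.6% a TATA box and 3.4% the interferon-type motif, and a match says only that these letters are present. Aligned end to end, Cd55 and Cd55b shared 213 of 277 aligned bases (76.9%), and Cd46 and Cr1l 147 of 268 (54.9%). The spans of the RefSeq genes Cd46 and Cr1l overlap, and that of Cd55os, an antisense gene, overlaps those of Cd55 and Cd55b. The counts carry no strand. Reads where Cd55os overlaps Cd55 or Cd55b may have been set aside as ambiguous or counted for the latter genes. This depends on the annotation used, which was not given. How overlap bore on the levels of Cd55, Cd55b, Cd46 and Cr1l was not tested.

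The components among the 9 genes were low, and C3 was the only one of them with a called change. C3, the protein on which all pathways converge, had its highest level in caput. C3 (ENSMUSG00000024164) measured 0.6095 and 1.318 RPKM in caput, 0.2341 and 0.1439 in corpus and, in cauda, 0.2751 and 0.2683. Caput 2 stood well above caput 1, and both above every other library. In log2, caput was higher by 1.76 ± 0.44 than cauda (adjusted p = 0.005918) and by 2.29 ± 0.46 than corpus (adjusted p = 0.001702). Without caput 2 these became 1.09 and 1.62, still called. Corpus and cauda differed by -0.53 (95% interval -1.63 to 0.57, adjusted p = 0.4411).

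Summed levels of several marker lists were highest in caput beside C3, though the single markers did not all follow their sum. Among them was the clear cell list, with the sums given above. All 12 of its tested markers were called higher in caput than in cauda, and against corpus 11 were higher in caput and 1 lower. The summed level of 8 basal cell markers was 69.68 and 94.44 RPKM in caput, 33.17 and 26.7 in corpus and, in cauda, 23.04 and 17.04. That of 13 mononuclear phagocyte markers was 79.52 and 130.5, 58.82 and 88.97, and 41 and 79.35 RPKM, and that of 11 stromal and endothelial markers 313.1 and 328.2, 77.14 and 71.77, and 199.6 and 238.3 RPKM. Csf1r, a receptor of mononuclear phagocytes, was at 0.5443 and 0.1404 RPKM in caput and at most 0.2061 elsewhere. Caput 2 held higher sums of the basal cell, phagocyte and stromal lists than caput 1, as for C3, but not of the clear cell list. The sperm sum, given with Cd46 above, was highest in caput 2 too. The principal cell sum was highest in cauda, but 7 of its 12 markers were called higher in caput than in cauda and 5 lower. Against corpus, 4 were higher in caput and 6 lower. Lcn2, of the 7, was at 177.3 and 321.4 RPKM in caput, 34.61 and 36.02 in corpus and, in cauda, 72.68 and 56.66. Most of the phagocyte sum came from Cd74, at 63.37 and 116.9 RPKM in caput, 46.36 and 78.99 in corpus and, in cauda, 28.14 and 68.55. Other phagocyte markers went either way, with Csf1r and Ctss higher in caput 1 and Ptprc and Aif1 in caput 2. Nearly all of the stromal sum in caput came from Dcn, as given with Cd46 above. Every listed basal cell marker had reads in every library, Itgax was at 0 in corpus 2, and Cdh5 was at 0 in all libraries but cauda 2. Between caput and cauda, all 8 basal cell markers were called higher in caput, as were 3 of the 11 phagocyte markers tested, whereas 1 of the 10 stromal and endothelial markers tested was higher in caput and 4 were lower. The phagocyte sum of caput 1 lay below that of corpus 2 and level with that of cauda 2. The part of these cells in the C3 result was not tested.

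The genes whose profile was nearest to that of C3 were Cpe, Ppic, Marcks, Oplah and Ecm1, at distances of 0.61 to 0.78. Cpe, which encodes carboxypeptidase E, a prohormone-processing enzyme, measured 46.78 and 94.07 RPKM in caput, 13.18 and 10.01 in corpus and, in cauda, 23.4 and 25.66, with the same excess in caput 2. Nearest to Cd55 were Smad3, Kank3, Gem, Limch1 and Eya2, at 0.45 to 0.57. Smad3, a mediator of TGF-beta signals, measured 5.963 and 4.386 RPKM in caput, 1.051 and 1.037 in corpus and, in cauda, 0.9209 and 0.8829. For Cd55 and Smad3 alike, caput 1 was the higher of the caput libraries. As these genes were picked for nearness over the same libraries, such likenesses follow from the choice.

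C4b, the C4 protein of the classical and lectin pathways, was close to the limit of detection. C4b (ENSMUSG00000073418) had 16 and 11 reads in caput, 4 and 4 in corpus and, in cauda, 5 and 2, or 0.08621 and 0.06768, 0.03913 and 0.03527, and 0.05058 and 0.01897 RPKM. The caput libraries were the highest, but the difference from cauda, 1.08 (95% interval -0.56 to 2.71, adjusted p = 0.2151), and from corpus, 0.97 (-0.62 to 2.57, adjusted p = 0.2513), were not called, and corpus and cauda differed by 0.10 (-1.76 to 1.96, adjusted p = 0.9437). Under library totals C4b was called higher in caput than in cauda at 1.92 (adjusted p = 0.03317). C4a, a near-identical copy, measured between 0.0268 and 0.0845 RPKM in the 6 libraries, from 5 to 18 reads each. Reads that fit both copies were not counted, and how many C4b lost that way was not tested.

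Factor B and factor D, the proteases of the alternative pathway, were barely detected or not detected. Cfb (ENSMUSG00000090231) had 2 and 0 reads in caput, 2 and 0 in corpus and, in cauda, 4 and 1, and did not pass the filter. Cfd (ENSMUSG00000061780), a gene best known from fat cells, had 0 reads in all 6 libraries, which allows a level of up to 0.0241 RPKM over the libraries together (3 counts, for counting error only). No difference in either could be detected at this depth.

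**Figure D4:**
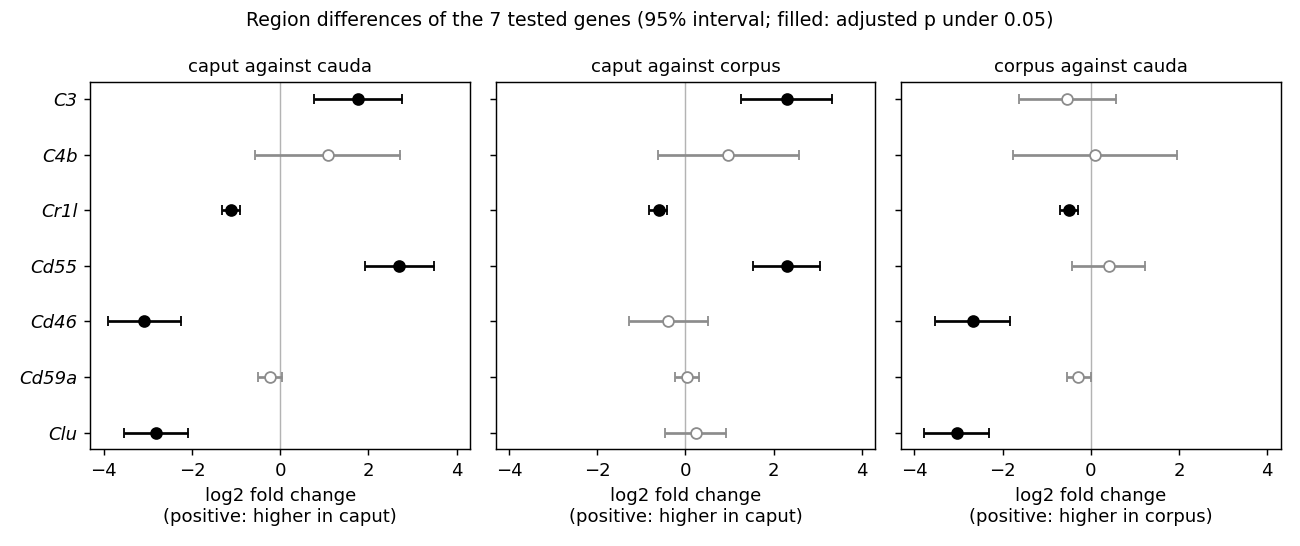
Log2 fold changes of the 7 tested genes (rows) in the 3 comparisons (panels), with 95% intervals. Filled points had an adjusted p under 0.05. Cr1l is called in all panels, Clu and Cd46 in both that involve cauda, and C3 and Cd55 in both that involve caput.

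Other genes of the complement system were taken from a list of 50 measured genes, of which 41 had a read and 28 passed the filter. Between caput and cauda, 2 were called higher in caput and 8 lower, with a median log2 fold change of -1.07 against 0.04 over all tested genes. Between caput and corpus, 4 were higher in caput and 11 lower, with a median of -0.70 against 0.04. Between corpus and cauda, 3 were higher in corpus and 6 lower, with a median of -0.53 against 0.00. The shares of all tested genes called in these comparisons, given above, are 66.9%, 65.0% and 35.4%. Without caput 2 the first count became 16 called genes in place of 10, and without either corpus library the second became 8 in place of 15. Under library totals the splits were 4 higher and 6 lower, 5 and 5, and 3 and 5.

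The soluble regulators C4bp and Cpn1 peaked in corpus. C4bp encodes C4b-binding protein, a cofactor for the breakdown of C4b, and in RefSeq on GRCm38 a single gene, Zp3r, separates it from Cd55. C4bp (ENSMUSG00000026405) measured 41.58 and 32.54 RPKM in caput, 254.4 and 311.1 in corpus and, in cauda, 34.97 and 28.68. Its log2 fold change was -2.99 ± 0.16 for caput against corpus (adjusted p = 2.74e-06) and 3.15 ± 0.16 for corpus against cauda (adjusted p = 9.15e-06). Cpn1, the catalytic subunit of carboxypeptidase N, which inactivates the C3a and C5a fragments, measured 8.531 and 5.864 RPKM in caput, 77.38 and 87.7 in corpus and, in cauda, 10.62 and 8.559 (-3.58 ± 0.19, adjusted p = 5.17e-06, and 3.10 ± 0.19, adjusted p = 3.62e-05, in the same comparisons). Both were far higher in the corpus libraries than in any other, and all 4 calls held under each of the 14 alternatives. The summed level of 5 red blood cell markers also peaked in corpus, at 15.59 and 17.67 RPKM against at most 1.997 elsewhere. Nearly all of it came from Alas2, the heme synthesis gene of red cell precursors, at 15.54 and 17.57 RPKM in corpus, whereas each globin gene of the list was at 0.1871 RPKM or below in every library. The lymphocyte sum was also highest in corpus, at 11.93 and 17.54 RPKM, against 1.488 and 11.6 in caput and 2.122 and 11.37 in cauda. None of its 5 tested markers was called between corpus and another region. Car2 of the clear cell list (438.8 and 498.5 RPKM in corpus) and Spint4 of the principal cell list (286.1 and 174.6) peaked there too. The sums of those lists did not. The part of any of these cells in the C4bp and Cpn1 results was not tested. In corpus, C4bp exceeded Clu, which measured 146 and 120.1 RPKM there.

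Cfi had the opposite shape, with its lowest level in corpus. It encodes factor I, the protease that cuts C3b and C4b with C4b-binding protein, Cr1l or Cd46 as cofactors. Cfi measured 1.39 and 1.79 RPKM in caput, 0.1611 and 0.5081 in corpus and, in cauda, 4.108 and 2.004. It was higher in caput than in corpus by 2.16 ± 0.54 (adjusted p = 0.007589) and the log2 fold change of corpus against cauda was -3.16 ± 0.54 (adjusted p = 0.002248). The first call was lost without corpus 1 (1.57, adjusted p = 0.05002), and without corpus 2 the value was 3.22. The second stayed called, at -2.57 without corpus 1, -4.23 without corpus 2 and -2.56 without cauda 1.

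Serping1, which encodes C1 inhibitor, was low in caput. It measured 0.7393 and 3.126 RPKM there, against 8.955 and 11.38 in the corpus libraries and 14.27 and 17.96 in those of cauda. The regions did not overlap. Its fold changes of -3.14 ± 0.71 for caput against cauda (adjusted p = 0.02115) and -2.47 ± 0.71 for caput against corpus (adjusted p = 0.04234) were called, but 4 and 7 of 14 alternatives lost those calls. Among these were the fits without cauda 1 (adjusted p = 0.05429) or cauda 2 (0.06697) for the former, and without corpus 1 (0.09482), corpus 2 (0.1302), cauda 1 (0.07416) or cauda 2 (0.07212) for the latter. The caput libraries differed widely, so that leaving out caput 1 gave -2.41 and -1.75, and leaving out caput 2 gave -4.52 and -3.85.

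Susd4, a membrane protein that inhibits complement activation, had its highest level in caput, at 30.29 and 23.51 RPKM, against 6.763 and 4.761 in corpus and 11.07 and 10.35 in cauda. Caput was higher by 1.26 ± 0.17 log2 than cauda (adjusted p = 2.89e-04) and by 2.16 ± 0.18 than corpus (adjusted p = 1.72e-05). Corpus against cauda gave -0.90 ± 0.18 (adjusted p = 0.005751), but the fit that left out cauda 1 did not call it (-0.85, adjusted p = 0.05048). In caput its level was close to that of Cr1l, at 28.24 and 29.25 RPKM. The summed clear cell and basal cell markers were also highest in caput, and their part in the Susd4 result was not tested.

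Of the terminal components, C8g rose towards cauda and C8a stood out in caput. C8g, the lipocalin-type subunit of C8, measured 4.609 and 3.105 RPKM in caput, 18.59 and 19.1 in corpus and, in cauda, 27.23 and 26.92 (-2.87 ± 0.17 for caput against cauda, adjusted p = 4.00e-07, and -2.35 ± 0.17 for caput against corpus, adjusted p = 1.83e-06). Its smaller difference between corpus and cauda, -0.53 ± 0.15 (adjusted p = 0.024), was lost under 6 of 14 alternatives, library totals and each fit without a corpus or cauda library among them (adjusted p 0.1095 to 0.2012). In RefSeq on GRCm38, C8g overlaps Fbxw5 and lies next to the lipocalin gene Lcn12. C8a, which encodes the alpha chain of C8, measured 0.4585 and 0.4423 RPKM in caput, 0.01435 and 0.1164 in corpus and, in cauda, 0.02968 and 0.02783. It was higher in caput by 3.84 ± 0.80 against cauda (adjusted p = 0.002054) and by 2.66 ± 0.69 against corpus (adjusted p = 0.00769), the latter lost without corpus 1 (1.86, adjusted p = 0.05064) and larger, at 4.78, without corpus 2. C8a overlaps Fyb2 in RefSeq on GRCm38. The part of the clear cell and basal cell markers, whose sums were also highest in caput, in the C8a result was not tested.

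C7, another terminal component, had 0 and 2 reads in caput, 13 and 33 in corpus and, in cauda, 3 and 23. It was called lower in caput in both comparisons (adjusted p = 0.01583 and 0.006313). The call against cauda was lost without caput 1 (adjusted p = 0.06976) or cauda 2 (adjusted p = 0.267), and also by limma on RPKM (adjusted p = 0.08286 and 0.1763 with pseudocounts of 0.1 and 1), and that against corpus without corpus 2 (adjusted p = 0.06223). C6, C8b and C9, singled out after their values were seen, had no read in any library, as had 9 of the 50 listed genes in all.

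C2 and C1ra, early components of the classical pathway, were low. C2, which joins C4b in the classical convertase, measured 0.1926 and 0.3372 RPKM in caput, 0.8626 and 0.5569 in corpus and, in cauda, 0.9282 and 0.7686. It was lower in caput, with log2 fold changes of -1.74 ± 0.38 against cauda (adjusted p = 0.002943) and -1.48 ± 0.39 against corpus (adjusted p = 0.007651). Under library totals both calls were lost (-0.88 and -0.89, adjusted p = 0.06702 and 0.06844), and without corpus 1 the second was (-1.15, adjusted p = 0.07232). C1ra, a protease of the C1 complex, had between 8 and 33 reads per library and was called lower in caput than in cauda (-1.87 ± 0.59, adjusted p = 0.01924) and in corpus (-1.51 ± 0.60, adjusted p = 0.04989). The first call was lost without caput 1 (adjusted p = 0.07759) or cauda 2 (adjusted p = 0.1698) and under library totals (adjusted p = 0.146), and the second under 10 of 14 alternatives, the fit without any one of caput 1, either corpus or either cauda library among them (adjusted p up to 0.2798). Without caput 2 the values were -2.57 and -2.21, both called.

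Both chains of complement receptor 3, an integrin of phagocytes that binds C3b fragments, were highest in cauda. Itgam measured 0.1011 and 0.132 RPKM in caput, 0.2011 and 0.1813 in corpus and, in cauda, 2.08 and 1.831 (-4.13 ± 0.28 for caput against cauda, adjusted p = 1.06e-06, and -3.35 ± 0.27 for corpus against cauda, adjusted p = 1.74e-05). Its small difference between caput and corpus (-0.77 ± 0.30, adjusted p = 0.04736) was lost under 12 of 14 alternatives, the replicate block (adjusted p = 0.06089) and every fit without a library but that without caput 2 among them. Itgb2 measured 0.0968 and 0.2653, 0.1933 and 0.2218, and 0.9995 and 1.789 RPKM (-3.01 ± 0.53 and -2.74 ± 0.54, adjusted p = 7.70e-04 and 0.003704), the latter call lost without cauda 2 (-2.26, adjusted p = 0.0557) and the former at -3.90 without caput 2. The phagocyte sums given with C3 overlapped between cauda and corpus, and the higher cauda library was level with caput 1. Most of each sum came from Cd74. Ptprc, the pan-leukocyte gene, was at 0.3378 and 0.6298 RPKM in caput, 0.2484 and 0.4268 in corpus and, in cauda, 0.0883 and 0.2559. Fcer1g, another marker of the list, was instead highest in cauda, at 1.943 and 2.024 RPKM. It was at 1.763 and 1.094 in caput and 0.7655 and 0.6273 in corpus. Of the 11 phagocyte markers tested, 3 were called higher in caput than in cauda and 0 lower. Between corpus and cauda, 0 were called higher in corpus and 1 in cauda. The part of phagocytes in the Itgam and Itgb2 results was not tested.

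**Figure D5:**
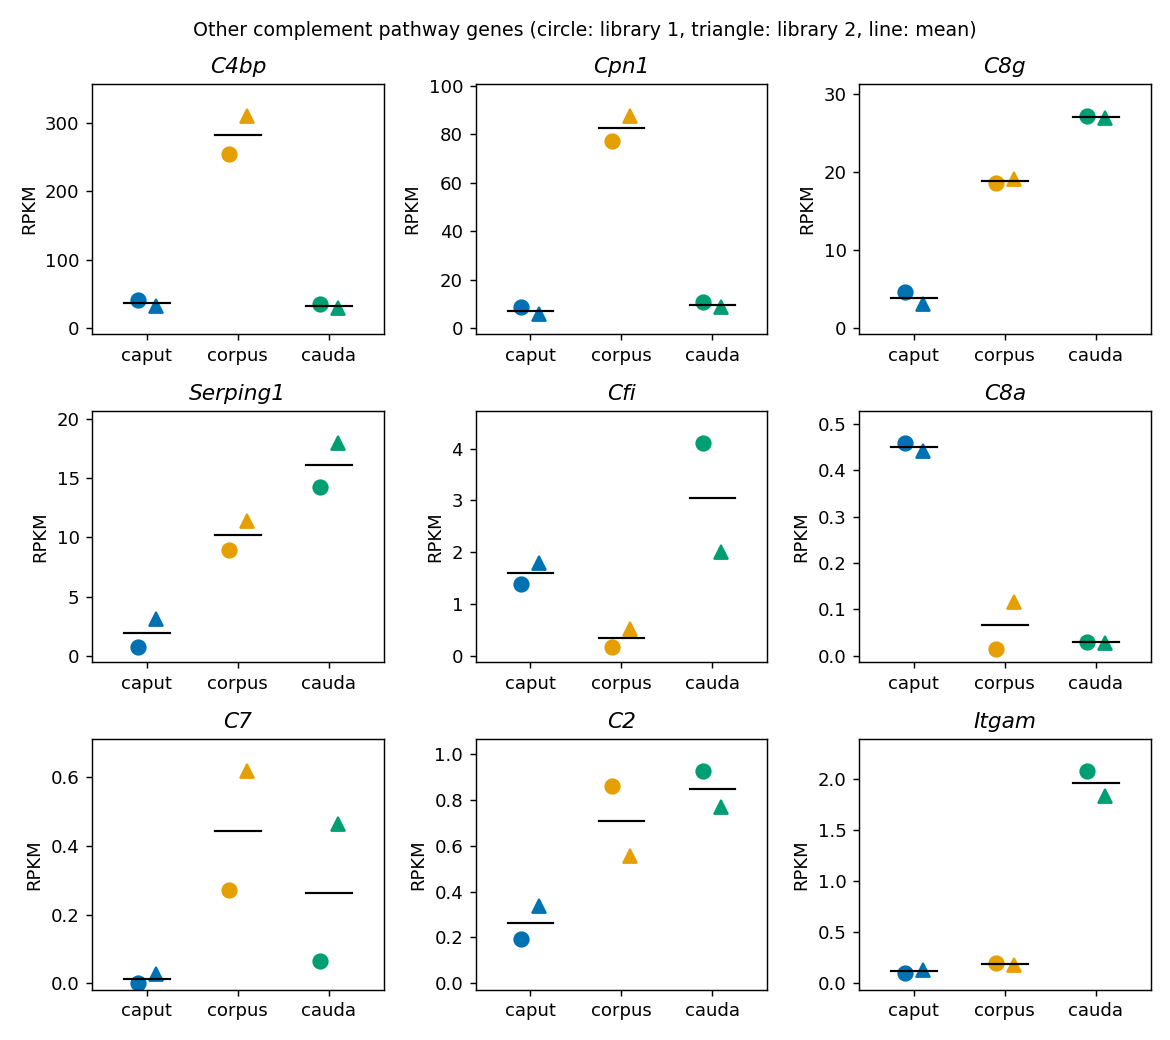
RPKM (vertical axes, linear, each with its own range) of 9 other complement genes by region, with circles for library 1, triangles for library 2 and lines at the means. C4bp and Cpn1 peak in corpus, Cfi is lowest there, C8g and Itgam are highest in cauda, and C8a is highest in caput.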

How the data were processed

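Clear cells sorted from the 3 regions were profiled by RNA-seq from SMARTer v4 cDNA, per the labels' protocols. For each library the authors deposited counts of reads per gene, and for all libraries a table of RPKM values. The count files' names describe an unstranded count. The submitters' processing notes name STAR, HTSeq, edgeR and the build mm9; their versions and the annotation were not given in the sources used here. Each deposited RPKM value equals the count over the deposited gene length (unit "other", in bases) and a scaled library size, within 0.1% for all genes with a read. The special rows of the count files were not used: reads placed at several positions made up 33.11% to 38.59% of a library, those in no feature 6.67% to 9.479%, and ambiguous ones 1.393% to 1.831%.

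Counts as deposited were tested with edgeR 4.0.16 (R 4.3.3): genes were filtered with filterByExpr, scaled by TMM and tested with robust two-sided quasi-likelihood F tests in one fit of all 6 libraries by region (3 residual degrees of freedom). Benjamini-Hochberg adjustment ran over all 15816 genes tested. The SE is the absolute log2 fold change over the square root of F, and is approximate. Levels are the deposited RPKM. Steps were tested on simulated data. Both libraries of each region differed beyond sampling noise (chi-square per degree of freedom 9.569 to 17.18), so none is a library deposited again. Deviations from the region means of same-numbered libraries correlated at 0.13 to 0.19 across genes, so the number was also fitted as a block. Alternatives included DESeq2 1.42.0 and limma 3.58.1.

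The 9 genes, the complement and marker lists, and the rule for names (all 9, near copies of them, listed genes that were called and whose higher region reached 1 CPM, and the 5 nearest profiles of Clu, C3 and Cd55 at a mean of at least 10 CPM, predicted genes passed over; log2 CPM with a prior count of 2) were chosen with earlier results of these data known. Genome coordinates other than the promoters are not given, since the reference was GRCm38.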

Additional observations from a re-analysis of the deposited data

How the results depend on the processing

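With 2 libraries per region, depth and replicate number limit the scarce genes most: C4b, Cfb and Cfd had 42, 9 and 0 reads in all. The counts of the 9 genes called ranged from 5 to 7, 3 to 4 and 2 to 4 over the alternatives for caput against cauda, caput against corpus and corpus against cauda, against 5, 3 and 3; leaving out a library gave 5 to 6, 3 to 3 and 3 to 4. With the replicate block these counts were 6, 3 and 4, and besides Cd59a and, in the complement list, Itgam between caput and corpus, the block changed no other call among the 9 genes and took none from the other complement genes named. For the other complement genes, leaving out a library gave 8 to 16, 8 to 21 and 6 to 12 called genes, against 10, 15 and 9 (13, 15 and 9 with the block); the values of each of these genes under the alternatives were added after seeing the data. Of the values of the 7 tested genes under alternatives, 279 kept direction and call, 7 gained a call, 2 lost one and 5 turned direction. The turned values were those of Cd59a for caput against cauda under library totals (0.62) and for caput against corpus without caput 1 (-0.11) or corpus 2 (-0.02), of Cd46 for caput against corpus under library totals (0.19), and of C4b for corpus against cauda without cauda 2 (-0.44, against 0.93 without cauda 1). The cause was not tested. Of these 5, that of Cd59a under library totals was called. A pseudocount of 1 RPKM brought C3, Cd55 and Cd46 for caput against cauda to 0.60, 1.19 and -1.06, since it exceeds most of their levels, with all 3 still called.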

Other observations

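The genes of C1q, the recognition molecule of the classical pathway that is known from mononuclear phagocytes, differed more within caput than between regions. C1qa measured 4.202 and 0.9395 RPKM in caput 1 and 2, 1.174 and 1.01 in corpus, and 2.317 and 1.242 in cauda. C1qb measured 5.392 and 2.02, 2.855 and 0.6435, and 3.375 and 1.632 RPKM, and C1qc 2.513 and 0.5595, 1.062 and 0.4656, and 1.217 and 0.7791 RPKM. None of the 3 was called in any comparison, and library 1 was the higher in every region for all 3. Csf1r was also higher in caput 1, at 0.5443 against 0.1404 RPKM. In the other regions its library 2 was the higher, at 0.03188 and 0.05747 in corpus and 0.04396 and 0.2061 in cauda. Ptprc and Aif1 were higher in caput 2. The summed phagocyte list, most of which came from Cd74, was higher in caput 2 (130.5 against 79.52 RPKM). C1qa, C1qb and C1qc were singled out after their values were seen.

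C1qa, C1qb and C1qc each exceeded C4b in every library. All 3 also exceeded C3 in every library but caput 2, where C3 measured 1.318 RPKM and C1qb alone of the 3 was higher.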
